A study of Rattus norvegicus with 8 samples.

Results

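Of the 22523 probes on the arrays, 10 are described here, 1 for each of 10 genes of the Notch and hedgehog pathways: the receptors Notch1, Notch2 and Notch3, the ligands Jag1, Jag2 and Dll1, the target genes Hes1 and Hey1, the hedgehog ligand Shh and its receptor Ptch1. Members were chosen by symbol, without regard to case or a trailing _predicted or _mapped. The array places Ptch1 on chromosome 17 and Shh on chromosome 4.

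The samples were enamel organs, the epithelial tissue that lays down tooth enamel, dissected from the mandibular incisors of 4 male Wistar Hannover rats aged 4 weeks, with no treatment or genetic change. Each rat gave 1 sample of the secretory stage, in which ameloblasts secrete the enamel matrix, and 1 of the maturation stage, in which that matrix is removed and mineral replaces it. Every sample had an Illumina RatRef-12 v1 array to itself, 8 in all, so that n = 4 per stage. For maturation replicates 2, 3 and 4 the source field names the secretory stage, while their titles, descriptions and tissue fields name maturation. The dissected layer holds several cell types besides ameloblasts, and the values are those of the whole layer.

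Notch receptors are surface proteins that are cut when a Jagged or Delta ligand on a neighbouring cell binds them. The freed intracellular part joins RBPJ in the nucleus and switches on genes such as Hes1 and Hey1. Hedgehog ligands are secreted proteins that bind Patched receptors and thereby release Smoothened, which activates the GLI transcription factors. Ptch1 and Hhip, which both bind the ligand, are themselves well-known targets of the pathway, so that their transcripts are often used as a readout of it. In the rodent incisor Notch1 is known from the stratum intermedium, the cell layer that lies against the ameloblasts, and Shh from the dental epithelium.

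To show the letters through which these pathways are known to act, promoter sequences of RefSeq (GRCr8; 250 bases before to 50 after the start site) were searched on both strands for TGGGAA, the core of the RBPJ motif, for the longer GTGGGAA, which contains it, and for TGGGTGGTC, a GLI motif. Of 11 genes sought, the members and Hhip, 9 had an entry. In Hes1, a classical Notch target, the RBPJ core stood at 2 places with 8 bases between them, starting 123 and 109 bases before the start site, and the first of them was also the longer motif. Ptch1 held the GLI motif 172 bases before the start site. Dll1 held the RBPJ core at 2 places, starting 185 and 82 bases before the start site; the former lies on the opposite strand, so that it reads TTCCCA below, and is also the longer motif. The motifs are in capitals below, and each line reads 5′ to 3′ along the gene.
Hes1 (chr11:84213144-84213173, minus strand): tactgTGGGAAagaaagttTGGGAAgtttc
Ptch1 (chr17:1555389-1555417, plus strand): gttgcctaccTGGGTGGTCtctctacttt
Dll1, first site (chr1:64993444-64993469, minus strand): ctccagcccgTTCCCAccgtgcccct
Of all 33469 promoters in the table, 25.7% held the RBPJ core, 6.29% the longer motif and 0.385% the GLI motif. Notch3 held the core 43 bases after its start site, and none of these letters stood in the windows of Notch1, Notch2, Jag1, Jag2 or Hhip. A match of letters is a description of the sequence, not evidence of binding.

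Signals were background-corrected, quantile-normalized and put on the log2 scale, and a log2 difference is maturation minus secretory. The stages were compared with limma over all 22523 probes, and calls required both a Benjamini-Hochberg adjusted p under 0.05 and a difference of 1.8-fold or more. By this rule 7.75% of all probes were called, 4.60% higher and 3.15% lower in the maturation stage; of probes detected on at least 4 arrays 15.5% were called, 9.19% higher and 6.27% lower. A probe counted as detected on an array at a detection p below 0.05 against the negative-control beads. The enamel genes followed the titles: on the brighter of its 2 probes the protease Klk4 stood at 13.12 to 13.45 on maturation arrays and at 5.14 to 6.47 on secretory arrays, and each of the 8 arrays was closer to arrays of the same titled stage. Maturation replicates 1 and 4 stood apart in the secretory-stage transcript Enam, with 9.08 and 8.22 against 5.17 and 5.53 in replicates 2 and 3 and 11.94 to 12.03 in the secretory stage. Before normalization the maturation arrays were brighter, with medians of 121 to 131 against 113 to 116, so that small differences depend on the scaling.

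Of the 10 probes described, 3 were called lower in the maturation stage, those of Shh, Ptch1 and Jag1, where 3.15% of all probes and 6.27% of those detected on at least 4 arrays were called lower (9.19% of the latter were called higher). None was called higher by limma; at an unadjusted p below 0.05, 8 were lower and 0 higher, where 18.3% and 15.9% of all probes were, and the test named in the study's methods gave 3 lower and 0 higher. The other 7 divided into 4 that passed the adjusted p and missed the fold (Notch1, Notch2, Hes1 and Hey1), 1 that missed both (Jag2) and 2 that were not detected on any array (Notch3 and Dll1). The median log2 difference of the 10 was -0.57, against -0.01 over all probes. The 4 maturation values lay below the 4 secretory values for 7 of the 10 probes, where 27.7% of all probes had stages that did not overlap in either direction. Since enamel organs were measured whole, a lower signal can come from fewer cells of a type or from less RNA per cell, and the arrays cannot tell them apart.

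**Figure D1:**
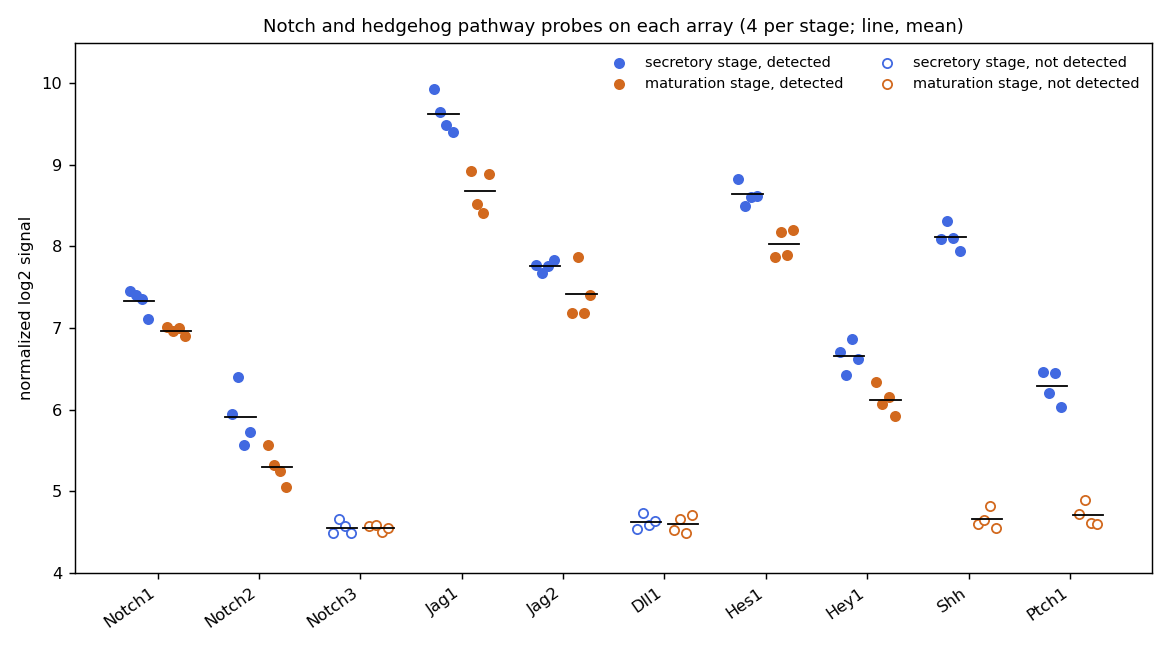
Normalized log2 signal of each probe on each of the 8 arrays, with the mean of each stage as a line; open circles are probes not detected on any array of that stage. Shh and Ptch1 were detected on all secretory arrays and on no maturation array, whereas Notch1, Notch2, Jag1, Jag2, Hes1 and Hey1 were detected on all 8. Levels of different probes are not comparable.

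Shh, the secreted ligand, was detected on all 4 secretory arrays and on no maturation array. Its normalized log2 signals were 8.09, 8.31, 8.11 and 7.95 in secretory replicates 1 to 4 and 4.59, 4.65, 4.82 and 4.55 in maturation replicates 1 to 4. The secretory values lay close together and far above the maturation values, which were at the background. In the deposited signals, before any correction, Shh read 279 to 356 in the secretory stage and 112 to 117 in the maturation stage. It was at least 8.97-fold lower in the maturation stage (adjusted p = 2.46e-08, limma). The fold is a bound because it was set against the lowest signals of detected probes on the maturation arrays.

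Its receptor fell with it. Ptch1 had signals of 6.46, 6.20, 6.45 and 6.03 in the secretory stage and of 4.72, 4.89, 4.61 and 4.59 in the maturation stage, where it was not detected. It was at least 2.52-fold lower (adjusted p = 4.94e-06, limma). Every secretory value of Ptch1 exceeded every maturation value by more than 1 on the log2 scale. In the deposited signals Ptch1 read 142 to 163 in the secretory stage and 110 to 124 in the maturation stage, a narrow margin over the background of the arrays. Without background correction Ptch1 stood at -0.58 and with normexp correction without negative controls and an offset of 50 at -0.83, and the call was lost under both. Shh (-1.72) was called without background correction as well.

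Both hedgehog transcripts were undetected in maturation replicate 1 too, where Enam was highest among the maturation arrays. Ptch1 lay close to background even in the secretory stage, so a small share of secretory tissue could leave it undetected. Without maturation replicates 1 and 4 the log2 differences were -3.29 for Shh and -1.47 for Ptch1, both called. Within the rats the difference, taken like these against signals at background and so no exact size, ran from -3.66 to -3.29 for Shh and from -1.84 to -1.32 for Ptch1, so that each transcript was lower in the maturation stage in 4 of 4 animals.

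**Figure D2:**
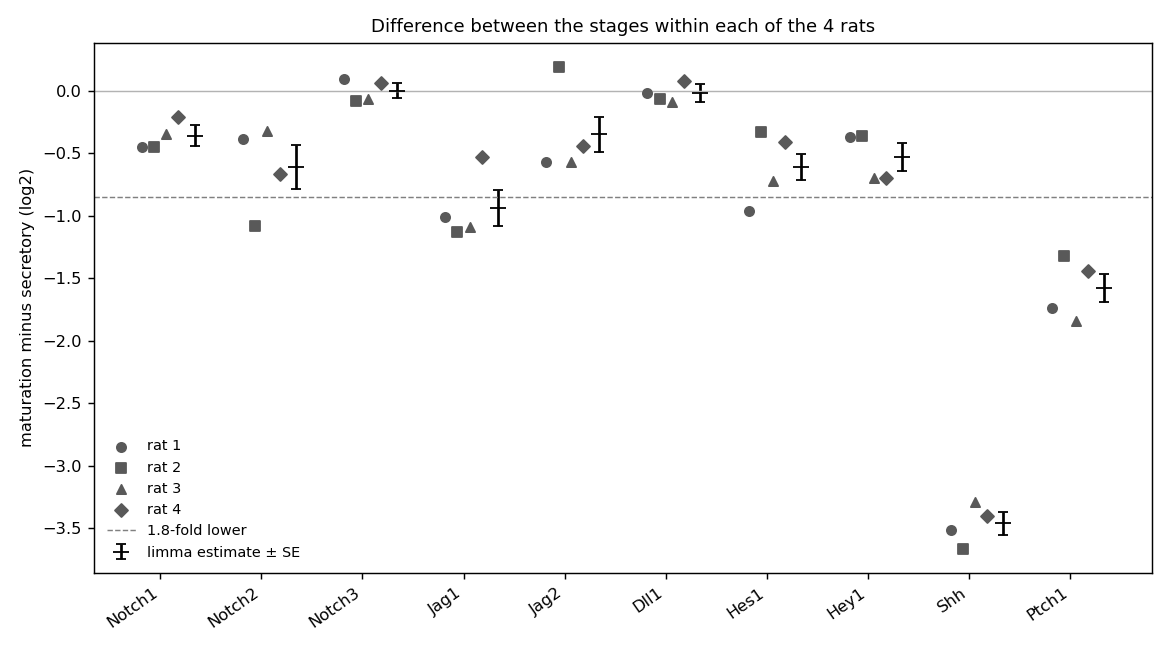
Maturation minus secretory log2 signal of each probe within each of the 4 rats, with the limma estimate ± SE beside them; the dashed line marks 1.8-fold lower. The differences of Shh and Ptch1, measured against undetected maturation signals, lay below that line in every rat, those of Jag1 in 3 of 4 rats, and those of Jag2 on both sides of 0.

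Hhip, the decoy that binds hedgehog ligands outside the cell, was no member but belonged to a wider list of hedgehog genes, and it was lower in the maturation stage too. Its signals were 7.90, 8.53, 8.38 and 8.16 in the secretory stage and 4.62, 4.49, 4.62 and 4.49 in the maturation stage, with no detection there. It was at least 9.79-fold lower (adjusted p = 7.40e-08, limma), and it was called lower with each array left out and under every alternative run. This bound, like those of Shh and Ptch1, holds for the main background correction: the fitted log2 difference of Hhip was -3.69, and came to -2.55 with an offset of 50, -2.39 with normexp and that offset and -1.86 without background correction. For Shh these values were -3.46, -2.40, -2.21 and -1.72.

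The wider hedgehog list held 32 further probes, of 28 genes, and 8 of the probes were not detected on any array. Of the 32, 2 were called lower (Hhip and Disp1) and 2 higher (Boc and Dhh), against 3.15% and 4.60% of all probes, and their median log2 difference was -0.07 (-0.01 over all probes). Disp1, which releases the lipid-bound ligand from the cell that makes it, went from 6.08 ± 0.230 to 5.21 ± 0.120 (SD, n = 4 each), a log2 difference of -0.87 close to the fold threshold. It was called in 14 of 23 settings. The call was lost without maturation replicate 1 (-0.84) or 4 (-0.81), without both (-0.75), and without secretory replicate 3 (-0.79). It was also lost with median scaling (-0.71), no scaling (-0.51), an offset of 50 (-0.52), normexp with that offset (-0.44) and no background correction (-0.31). Smo, the transducer, stood at 6.07 to 6.25 in the secretory stage and 5.10 to 5.59 in the maturation stage. Its log2 difference of -0.78 passed the adjusted p (5.82e-04, limma) and missed the fold. With no scaling Smo came to -0.37 and missed the adjusted p as well (0.0979, limma). It came to -0.57 with median scaling, -0.47 with an offset of 50, -0.40 with normexp and that offset and -0.29 without background correction. The probes of Gli2 and Gli3 were not detected on any array, and Gli1 was not analysed here.

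Boc, a coreceptor that binds hedgehog ligands at the cell surface, rose from 7.98 ± 0.110 to 8.94 ± 0.0748 (SD, n = 4 each; log2 difference 0.97, adjusted p = 7.35e-06, limma). Its call was lost without background correction (0.76) and with normexp and an offset of 50 (0.84). Dhh, a hedgehog ligand known from the Schwann cells of nerves, rose from 5.16 ± 0.321 to 6.39 ± 0.0294 (SD, n = 4 each), with detection on 3 secretory arrays, and its log2 difference was 1.22 (adjusted p = 1.19e-04, limma). The call of Dhh was lost with an offset of 50 (0.75), with normexp and that offset (0.65) and without background correction (0.47). Of 4 probes for markers of nerve sheath, 1 was called higher, that of S100b (1.20), and none lower. Sox10 was detected on 4 maturation arrays and no secretory array. The summed signal of these markers was 226 to 251 on maturation arrays and 139 to 160 on secretory arrays, and their part in the rise of Dhh was not tested. None of the 15 probes for cytoplasmic regulators, such as Kif7 and Btrc, was called by limma, nor any of the 5 for the primary cilium. At the adjusted p alone 1 of the 15 was higher and 3 lower, and 0 and 2 of the 5. Of all probes 12.8% and 14.0% were. Sufu, 1 of the 15, was not detected on any array. Kif7 had a probe at -0.75 (adjusted p = 0.00485, limma) and another at -0.14 (0.565).

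Markers of other cells moved between the same stages. Dspp, which odontoblasts make and which young ameloblasts are known to make for a short time, stood at 9.33 to 10.68 in the secretory stage and was not detected in the maturation stage. Of the 7 probes for odontoblast and osteoblast markers, 1 was called lower (Dspp) and 1 higher (Ibsp), with a summed signal of 10600 to 25300 in the secretory stage and of 16600 to 18700 in the maturation stage; Sp7 was not detected on any array. Of the 7 probes for cell cycle genes limma called none, and their median log2 difference was -0.52. At the adjusted p alone 6 were lower and 1 higher, where 14.0% and 12.8% of all probes were. Epithelial Krt14 and Trp63 stood at 14.07 to 14.15 and 12.10 to 12.29 in the secretory stage and at 14.48 to 14.70 and 12.40 to 12.80 in the maturation stage. The only called epithelial probe of 5 was that of Cdh1, lower by a log2 difference of -1.17. Among the remaining lists limma called 2 higher and 0 lower of 11 fibroblast probes (Thy1 and Prrx1), and 6 and 0 of 10 for macrophages and leukocytes (Cd68, Lcp1, Ptprc, Cd14, C1qa and Tyrobp, with another probe of Lcp1 undetected on all arrays). It called 0 and 0 of 4 for blood (0 and 1 at an unadjusted p below 0.05) and 0 and 0 of 6 for skeletal muscle (1 and 0), where Myh4 was undetected on all arrays. For ameloblasts 0 higher and 2 lower were called of 4 secretory-stage probes (Enam and Mmp20), and 5 higher and 0 lower of 6 maturation-stage probes (Klk4 with both probes, Slc24a4, Wdr72 and Car6), with Slc26a4 undetected on all arrays. The part of these cells in the hedgehog results was not tested.

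Among the Notch members the differences were smaller than that of Shh. Jag1, a ligand, was called lower in the maturation stage. Its signals were 9.93, 9.65, 9.49 and 9.41 in secretory replicates 1 to 4 and 8.92, 8.52, 8.41 and 8.89 in maturation replicates 1 to 4. The stages did not overlap, with every secretory value above every maturation value. The log2 difference was -0.94 (standard error 0.146, adjusted p = 8.97e-04, limma), a 1.92-fold fall. It lies close to the threshold: without secretory replicate 1 the difference was -0.84 and the call was lost, as it was without background correction (-0.81), with median scaling (-0.60) and with no scaling between arrays (-0.40). Within the rats it ran from -1.13 to -0.53. Among 9960 probes with a current symbol that were detected on at least 4 arrays, the mean-centred profiles over the 8 arrays closest to that of Jag1 were those of Thsd7b and Mcmbp, at root mean square distances of 0.112 and 0.115 on the log2 scale.

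Jag2, the related ligand, had signals of 7.77, 7.68, 7.76 and 7.84 in the secretory stage and of 7.19, 7.87, 7.18 and 7.41 in the maturation stage. Maturation replicate 2 lay above all secretory values, so the stages overlapped, and the log2 difference of -0.35 (standard error 0.140) missed the adjusted p (0.107, limma). Without maturation replicate 2 it was -0.50 with an adjusted p of 0.00176 (limma), still short of the fold. Its sign turned with no scaling between arrays (0.18). Dll1, a Delta ligand, was not detected on any array, with signals of 4.49 to 4.73.

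Notch1 had signals of 7.46, 7.41, 7.35 and 7.11 in the secretory stage and of 7.01, 6.96, 7.00 and 6.90 in the maturation stage. The stages did not overlap, but the log2 difference was only -0.36 (standard error 0.0813, adjusted p = 0.00765, limma), and it came to -0.04 with median scaling and 0.16 with no scaling. In the deposited signals Notch1 averaged 243 on maturation arrays and 220 on secretory arrays. Notch2 had signals of 5.95, 6.40, 5.56 and 5.72 in the secretory stage and of 5.56, 5.32, 5.25 and 5.05 in the maturation stage, with secretory replicate 3 just above maturation replicate 1, alike at this rounding. Its log2 difference was -0.61 (standard error 0.176, adjusted p = 0.0269, limma; 0.0950 with the test named in the study's methods) and -0.25 with no scaling. The limma adjusted p of Notch2 was above the threshold in 4 of the 8 fits with an array left out. It was 0.0592, 0.0649 and 0.0790 without maturation replicates 2, 3 and 4 and 0.0613 without secretory replicate 1. The threshold was also missed with an offset of 50 (0.0515), median scaling (0.0818) and no scaling (0.392), and without maturation replicates 1 and 4 together (0.0844). With the rat as a block the adjusted p was 0.0130 (limma). Both receptors missed the fold threshold, though 26.9% of all probes passed the adjusted p at some fold. Notch3 was not detected on any array.

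Hes1 and Hey1, repressors that Notch switches on, resembled the receptors. Hes1 had signals of 8.83, 8.50, 8.61 and 8.62 in the secretory stage and of 7.87, 8.18, 7.89 and 8.20 in the maturation stage, a log2 difference of -0.61 (standard error 0.103, adjusted p = 0.00152, limma). Hey1 had signals of 6.71, 6.42, 6.86 and 6.62 in the secretory stage and of 6.34, 6.07, 6.15 and 5.92 in the maturation stage, a log2 difference of -0.53 (standard error 0.112, adjusted p = 0.00541, limma). In both the stages did not overlap and the fold stayed under 1.8. With median scaling each came to -0.26, past neither threshold, and with no scaling to -0.06. The deposited signals averaged 408 and 411 for Hes1 and 176 and 171 for Hey1 in the maturation and secretory stages.

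**Figure D3:**
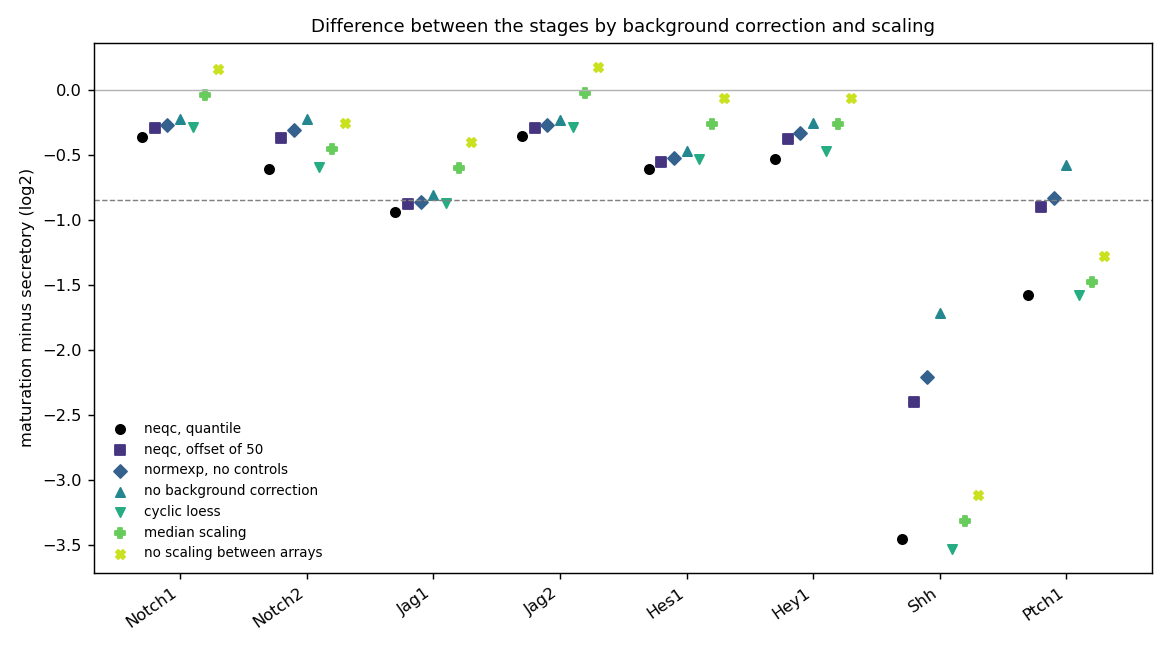
Log2 difference between the stages for the 8 probes detected on at least 1 array, under each background correction and each scaling between arrays; the dashed line marks 1.8-fold lower. Shh lay below the line under all 7, Ptch1 under 5 and Jag1 under 4, while Notch1 and Jag2 lay above 0 with no scaling.

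The maturation arrays were the brighter before scaling: with no scaling between arrays the median log2 difference of all probes was 0.13, against -0.01 with quantile normalization. That median takes in 9011 probes not detected on any array, so it need not give the shift of probes with signal. The unscaled values were -3.12 for Shh, -1.28 for Ptch1, -0.40 for Jag1 and -0.25 for Notch2. For Notch1, Jag2, Hes1 and Hey1 they were 0.16, 0.18, -0.06 and -0.06, against -0.36, -0.35, -0.61 and -0.53 with quantile normalization.

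The other genes of the Notch pathway were given by a list of 52 further probes, of 49 genes, of which 13 probes were not detected on any array. Of the 52, 1 was called higher (Dlk1) and 1 lower (Mfng), against 4.60% and 3.15% of all probes; at the adjusted p alone 10 were higher and 11 lower, where 12.8% and 14.0% of all probes were, and the median log2 difference was 0.01. Mfng, a fringe enzyme that adds sugar to Notch receptors and changes which ligands they respond to, had signals of 10.42, 10.73, 10.29 and 10.86 in the secretory stage and of 8.89, 8.89, 9.08 and 8.85 in the maturation stage. Its log2 difference was -1.65 (standard error 0.124, adjusted p = 8.41e-06, limma), a 3.14-fold fall that was called with each array left out and under all other alternatives. Lfng, the related fringe, was detected on 3 of 8 arrays and stood at 4.75 to 5.27. Dlk1, a Delta-like protein without the domain that activates Notch, stood at 5.19 to 6.00 on the maturation arrays and had no detection on the secretory arrays. It was at least 1.57-fold higher (adjusted p = 0.00156, limma), and its fitted log2 difference of 0.97 came to 0.84 without maturation replicate 1, 0.51 with an offset of 50, 0.49 with normexp and that offset and 0.33 without background correction, short of the fold in each, as was the bound.

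Notch4 and Dll4, a receptor and a ligand known from blood vessels, were not called. Notch4 stood at 6.53, 6.93, 6.84 and 6.35 in the secretory stage and at 7.63, 7.81, 7.44 and 7.16 in the maturation stage, with a log2 difference of 0.84 (standard error 0.163, adjusted p = 0.00340, limma) just short of the fold. It was called in 9 of 23 settings, among them without maturation replicate 3 (0.87) or 4 (0.96), without secretory replicate 2 (0.94) or 3 (0.90), and with median scaling (1.14). Its difference came to 0.67 with an offset of 50, 0.61 with normexp and that offset and 0.50 without background correction, not called under any of these. Dll4 had a log2 difference of 0.59 (adjusted p = 0.0205, limma; 0.0780 with the test named in the study's methods), with detection on 2 secretory arrays. Its stages overlapped, with maturation replicate 1 at 5.25 and secretory replicate 4 at 5.35. The adjusted p of limma was 0.0608 without maturation replicate 2, 0.0625 without maturation replicate 4 and 0.0528 without secretory replicate 3. Within the rats the difference of Dll4 ran from 0.46 to 0.68, and with the rat as a block the adjusted p was 7.22e-04 (limma). Dll4 was called with no scaling (0.87), and came to 0.20 without background correction. Of 9 probes for endothelial markers 1 was called higher, that of Vwf (0.88), and none lower, with a summed signal of 6410 to 7990 on maturation arrays and 4950 to 6080 on secretory arrays; Cdh5 and Robo4 were not detected on any array. Of 8 probes for pericytes and smooth muscle, 3 were called higher (Cspg4, Des and Rgs5) and none lower, with a summed signal of 2510 to 2940 on maturation and 2140 to 3010 on secretory arrays; 1 of the probes of Myh11 was not detected. The part of these cells in the values of Notch4 and Dll4 was not tested.

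No probe for the proteases that cut Notch or for the nuclear complex was called (limma). At the adjusted p alone 12.8% of all probes were higher and 14.0% lower. Of 9 protease probes, 1 was higher and 3 lower by that measure, led by Psen2, a catalytic subunit of gamma-secretase, with -0.78. Of 13 for the nuclear complex, 2 were higher and 2 lower; Rbpj stood at 5.12 to 5.67 in the secretory stage and 5.05 to 5.36 in the maturation stage, and the stages overlapped. Among the other target genes Hes6 was higher by 0.28 (adjusted p = 0.00569) and Heyl lower (log2 difference -0.45, adjusted p = 8.48e-04), both from limma and short of the fold; Hes2, Hes3, Hes5 and Hes7 were not detected on any array.

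**Figure D4:**
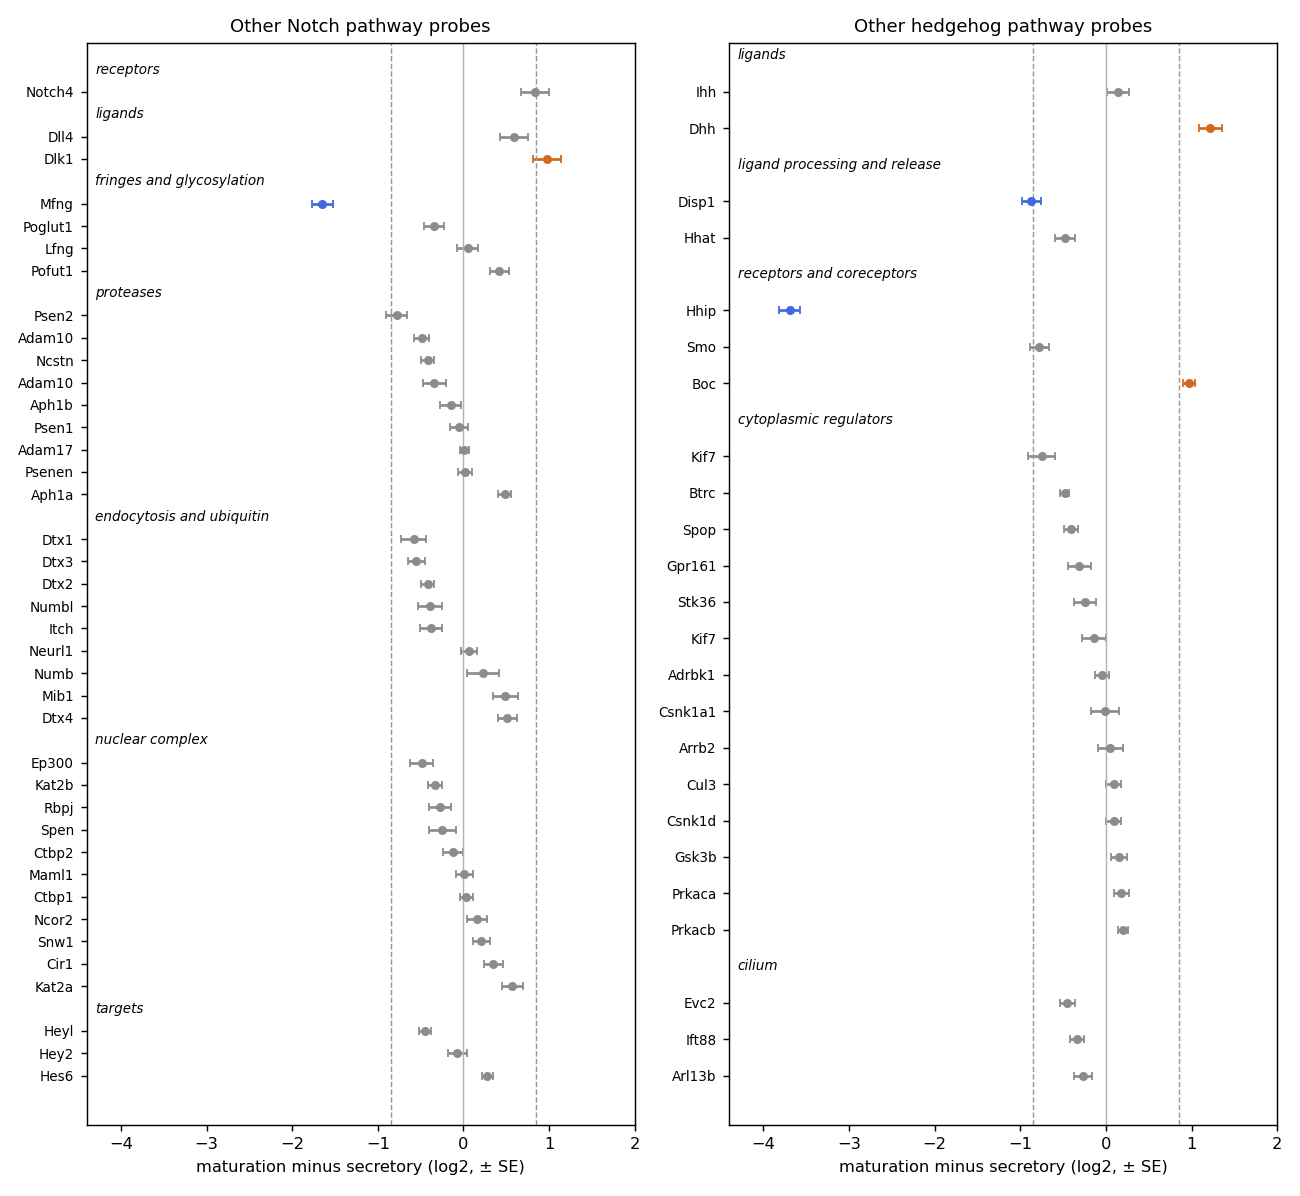
Fitted log2 difference between the stages, ± SE, of the other Notch and hedgehog pathway probes detected on at least 1 array, grouped by role; dashed lines mark 1.8-fold, and probes called higher or lower are in orange and blue. Mfng, Hhip and Disp1 were called lower and Dlk1, Dhh and Boc higher; the values of Hhip and Dlk1 are fits against a stage in which they were not detected.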

How the data were processed

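Total RNA of 8 enamel organ samples, 4 per stage, was measured on Illumina RatRef-12 v1 arrays. The authors deposited a table that gives, for each probe and array, the mean bead signal as an intensity with no correction or scaling, its standard error as a further column, the number of beads as counts (28 to 54 for the member probes) and a p-value of detection. The summarising software and the genome build are not given in the sources used here. Columns were matched to samples by the short names in the descriptions. Intensities summed to between 11881691 and 16122665 per array, with 10667 to 11450 probes detected; precision is limited by the number of arrays.

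The intensities were processed with neqc of limma 3.58.1 (R 4.3.3): background correction with negative controls estimated through the detection values, an offset of 16, quantile normalization and log2. Models were fitted with lmFit and eBayes on all 22523 probes, without a filter. The main test was unpaired, since the methods do not call their test of the arrays paired. They do state that each animal contributed a sample of either stage, so that replicate numbers mark a rat, and deviations from the stage means correlated at 0.129 to 0.234 within rats over 11233 probes. For a probe undetected on all arrays of a stage the fold is a bound, taken against the lowest detected signals of those arrays. Current symbols were found by gene ID in the RefSeq table of GRCr8 for 17430 probes. No pair of arrays held identical values. Tested on simulated data for this comparison (22523 probes), limma recovered 100% of 200 probes changed by 2 on the log2 scale, with 0 false calls. The changes were well above the fold threshold and were added after normalization. The simulation therefore does not cover differences near the threshold or the choice of background correction and scaling.

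A further probe that the symbol rule takes and a gene of the nerve sheath list are not reported here. The members, gene lists and tests were chosen with earlier results of these data known. Named genes were all members, called probes of the pathway and marker lists, markers undetected on all arrays, Notch4, Dll4, Lfng, Rbpj, Smo, Hhip and the Gli genes, and the 2 closest profiles of Jag1; those of called members undetected in a stage are not given. Psen2, Hes6, Heyl, the other Hes genes, Sufu, Kif7, Btrc, Krt14, Trp63 and Sox10 were named after their values were seen. The alternatives were other background corrections, offsets and scalings, a filter on detection, array weights, a block for the rat, the test named in the methods, other thresholds, bounds, and each array left out; leaving out maturation replicates 1 and 4 together was added after the data were seen.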

Additional observations from a re-analysis of the deposited data

How the results depend on the processing

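Of the member probes 3 were lower and 0 higher under every alternative run, except that the number lower was 1 without background correction, 2 with normexp without negative controls and an offset of 50, 2 with median scaling, 2 with no scaling, 5 at a fold of 1.5 and 2 to 3 with each array left out. Shh was called under all alternatives. With no scaling the log2 difference turned to 0.16 for Notch1 and 0.18 for Jag2. With the rat as a replicate block 3 member probes were lower and 0 higher, and over all probes 1037 were higher and 713 lower. The remaining counts moved as follows. With normexp and that offset, which changes both choices at once, 0 other Notch probes were higher, and 0 other hedgehog probes higher and 1 lower; without background correction these were 0, 0 and 1, and with the offset of 50 alone they were 0, 1 and 1. Cyclic loess gave 2 other Notch probes higher, median scaling 3, and no scaling 6, and both of the last left 1 other hedgehog probe lower. At a fold of 1.5, 3 other Notch probes were higher and 2 lower, and 4 other hedgehog probes lower. With bounds in place of fitted values 0 other Notch probes were higher. Without maturation replicates 1 and 4 (chosen after seeing the data) 2 other Notch probes were higher and 1 other hedgehog probe lower. With each array left out, 0 to 2 other Notch probes were higher and 1 to 2 lower, and 1 to 2 other hedgehog probes lower. Over all probes, 1035 higher and 710 lower in the main test, normexp with its offset gave 669 higher, no background correction 526 higher and 397 lower, median scaling 1610 and 465, no scaling 2268 and 332, and a fold of 1.5 1637 and 1360; the share of calls that were higher was 59.3% in the main test, 77.6% with median scaling and 87.2% with no scaling. Fewer probes pass a fixed fold where no background is taken off, since that shrinks differences; the cause of the other moves was not tested. Signals close to background, such as those of Ptch1, Disp1, Dhh and Dlk1, limit the precision of their folds.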
